A study of Danio rerio with 18 samples.

Results

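Genes that stretch over more than 100 kb from their first to their last exon take RNA polymerase II long to copy, and the ones followed here were also abundant in RNA captured from early zebrafish embryos. Members were selected on measured values, since a gene was included when it was nuclear, had a span above 100000 bases in GRCz11, lay off chromosome 4 and had a mean normalized count of at least 50 in the authors' deposited tables. That rule chose 167 genes, against 17135 in the whole of the authors' deposited tables, and 8 further long genes of that abundance lay on chromosome 4. The mean runs over all libraries, injected ones included, so a gene high in 1 group alone could enter through that group. Counts of members are therefore descriptions of these 167 genes. Shorter genes chosen by the same mean limit could enter in the same way. Values of single libraries were not used here, because the names of the 18 count columns match no sample label. What can be shown for each gene is its mean over all libraries and its log2 fold change with standard error (SE) in each comparison.

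The study used whole wild type Danio rerio embryos in 3 conditions at 2 stages of zygotic genome activation, the 256-cell and the 1024-cell stage, with 3 biological replicates in each of 6 groups. Embryos of the CDK9 groups were injected with cdk9 mRNA and the modified nucleotide s4UTP, those of the MiR430 groups with MiR430 microRNA and s4UTP, and untreated embryos with s4UTP alone. Labelled RNA was pulled down through biotin and its s4U bases were converted with iodoacetamide before sequencing (enriched SLAM-seq). No embryos received an unrelated mRNA or microRNA, so an effect of injected RNA as such cannot be told apart from that of CDK9 or MiR430. In whole embryos, fewer cells that transcribe a gene and less RNA per cell cannot be told apart either.

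CDK9 is the kinase of P-TEFb, the factor that releases paused RNA polymerase II into productive elongation. Cleavage cycles of the early fish embryo are short, and the first genes it activates are known to be mostly short and poor in introns. Very long vertebrate genes often encode adhesion molecules, receptors, cytoskeletal proteins and regulators of small GTPases, and many of their mRNAs are already supplied by the mother. Roles named below are those of the vertebrate protein families, mostly worked out in mammals.

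The 167 genes had spans of 101819 bases (wwc3) to 455017 bases (tenm4), with a median of 154374 bases, and 43 of them exceeded 200 kb. The 3 longest were tenm4, a teneurin of cell adhesion, plxna1a, a semaphorin receptor (432575 bases), and lrba, a vesicle traffic protein (430372 bases). Most of each span was intron. Merged exons covered a median of 4.08% of the span, in a median of 25 exon blocks with 7112 exon bases. In 35 of the 167 genes a single gap between exons made up more than 50% of the span, and in 86 the span would be 100 kb or less without that gap. Members lay on 24 chromosomes and 1 scaffold, with 18 on chromosome 7.

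These genes were abundant by their rule, yet not rich in RNA per length. Their mean normalized counts in the authors' deposited tables lay between 50.04 (chsy1) and 247.5 (pcdh1b) with a median of 76.3, which sums to 901 to 4455 normalized counts per gene over the 18 libraries. Only 5 genes reached 200. Divided by exon length, members had a median of 12.9 normalized counts per kb of exon in the authors' deposited tables, against 108 in equally selected genes of up to 5 kb and 30.2 in those of 5 to 20 kb. The highest level per kb belonged to pepd, a dipeptidase, with 46.4. Together members held 3.08% of the summed nuclear mean, while mitochondrial genes held 96.8% of the summed mean of all genes. Of all 1295 nuclear genes over 100 kb off chromosome 4, 12.9% reached a mean of 50, against 11.4% of genes up to 5 kb and 18.8% of those of 50 to 100 kb.

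Just inside the span limit lay wwc3, tcf7l1a (102158 bases) and CABZ01034698.2 (103112 bases), and just outside it gak (99573 bases), rasgef1ba (99530 bases) and mxra5b (98934 bases). Just inside the mean limit lay chsy1, ubr3 (50.1) and atxn1a (51.0), and just outside it ptprsa (49.98), elmo1 (49.6) and prex1 (49.3), as means in the authors' deposited tables.

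The first question was whether more CDK9 changes captured RNA of the longest genes at the 256-cell stage. Of the 167 genes, 8 rose, 0 fell and 159 did not pass an adjusted p of 0.05 (DESeq2, Benjamini-Hochberg) per the authors' deposited table. That is 4.79% of members, close to the 5.04% that rose among all 9124 genes tested, while 0.373% of all genes fell. Of 2057 tested shorter genes with a mean of at least 50, 10.6% rose and 0.583% fell. The difference from these was not tested. The protocadherin gene pcdh1b stood far above the rest, with a log2 fold change of 7.34 (SE 1.54), and the 7 others lay between 1.09 and 2.09. The median log2 fold change of members was 0.16 per the authors' deposited table, against 0.18 in the 2057 shorter genes of the same abundance and 0.07 in all tested genes. At an unadjusted p under 0.05, members were higher in 34 cases and lower in 4, namely pald1a, exoc6b, hs2st1b and gcn1. The background under that rule was 7.98% higher and 2.04% lower. Members were higher in 20.4% of cases, against 23.2% of shorter genes with a mean of at least 50, a difference that was not tested. With z statistics recentred on their median 3 of the 8 rises passed, those of pcdh1b, ccser1 and clasp1a. There were 16 with adjustment over genes of a mean of at least 50. Shares over all genes under these 2 rules are not given here. The 5.04% belongs to the deposited adjustment and is no background for the counts of 3 and 16.

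At the 1024-cell stage 2 members rose, pcdh1b and ece2a, and 1 fell, the kinase gene prkg1a, per the authors' deposited table (DESeq2, adjusted p under 0.05). Risen members made up 1.2%, against a background of 5.89% among 11724 genes tested, and the background of falls was 0.461%. Of 2057 tested shorter genes with a mean of at least 50, 14.3% rose and 0.632% fell. Members had a median log2 fold change of -0.02, against 0.04 in shorter genes of the same abundance, per the authors' deposited table. At an unadjusted p under 0.05 members were higher in 7 cases and lower in 7, against backgrounds of 9.83% and 2.75%. For 151 of the 167 genes the log2 fold change lay within 0.5 of 0, and for 114 the interval of 1.96 SE on either side stayed within 1 of 0. At the 256-cell stage those numbers were 120 and 59. The estimates are shrunken toward 0 by the authors, so these intervals are narrower than unshrunken ones would be.

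Shorter genes with a mean of at least 50 give the setting for these shares, as a description with no test of the difference. At the 256-cell stage the share that rose per the authors' deposited table was 4.79% above 100 kb. It was 36.7% up to 5 kb, 9.89% from 5 to 20 kb, 3.9% from 20 to 50 kb and 3.76% from 50 to 100 kb. Later, at the 1024-cell stage, the share was 1.2% above 100 kb per the authors' deposited table. The shorter classes had 51.4%, 14.5%, 4.8% and 1.73% in the same order. Members were thus close to the classes of 20 to 100 kb at the 256-cell stage, while both classes below 20 kb had higher shares. The span classes also differed in exon count, with a median of 25 exon blocks above 100 kb and 2 up to 5 kb, and in level per kb. The mean limit itself uses the CDK9 libraries, so genes high under CDK9 could enter each class through them. The part of those differences and of this limit in the shares was not tested.

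**Figure D1:**
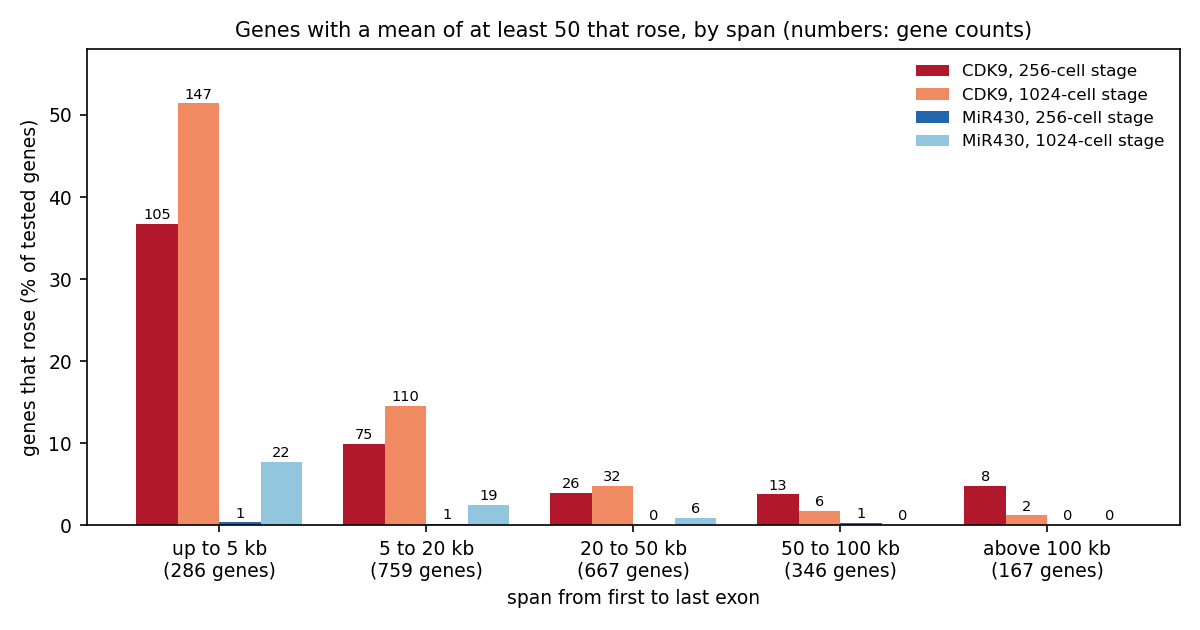
Share of tested genes that rose (adjusted p under 0.05) in each of 4 comparisons with untreated embryos, by gene span, among nuclear genes off chromosome 4 with a mean of at least 50. Bars give percent and the number above each bar is the gene count. Above 100 kb, 8 genes rose under CDK9 at the 256-cell stage and 2 at the 1024-cell stage, out of 167, against 105 and 147 of 286 genes up to 5 kb.

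Within the 167 genes the medians hardly differed by span. Of 80 genes of 100 to 150 kb 4 rose under CDK9 at the 256-cell stage, of 44 genes of 150 to 200 kb 1 rose, and of 43 longer genes 3 rose, per the authors' deposited table. Medians of the log2 fold change were 0.16, 0.14 and 0.16 in these classes. Across the 167 genes the signed z statistic and the span had a Spearman correlation of 0.05 at the 256-cell stage and 0.12 at the 1024-cell stage. These are correlations across genes of the same libraries, and genes are not independent replicates. Across all 2224 genes with a mean of at least 50 and a statistic, the correlation with the span was -0.17 and -0.37.

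Among adhesion, polarity and junction genes 1 of 16 members rose, pcdh1b, at both stages. Over all tested genes 5.04% rose at the 256-cell stage and 5.89% at the 1024-cell stage. The gene (ENSDARG00000036175, chromosome 14, 37545341 to 37831941, plus strand) encodes a cell surface cadherin relative and had the highest mean of the members, 247.5 per the authors' deposited table. Means of ece2a (56.8), rapgef2 (51.4) and clasp1a (67.9) include CDK9 libraries in which these genes were high. None of them is therefore shown to be abundant in untreated embryos. The same limit applies to pcdh1b, whose mean includes the CDK9 libraries in which the gene was high. It rose by 7.34 (SE 1.54, DESeq2 adjusted p = 3.2e-05) at the 256-cell stage and by 3.31 (SE 1.26, adjusted p = 0.00786) at the 1024-cell stage on the log2 scale, which is 162-fold and 9.92-fold, per the authors' deposited table. Its layout was unusual among members. It had 6 exon blocks, and 53.0% of its 7425 exon bases lay in the first 20 kb, followed by a gap of 154.8 kb. The median member had 9.53% of its exon bases in that window, and only gmds, ccser1, zc3h3 and pcdh1b had more than 50% of them there. Of these 4 genes ccser1 also rose at the 256-cell stage, by 1.39 (DESeq2 adjusted p = 0.0041), per the authors' deposited table. There gmds and zc3h3 had log2 fold changes of 0.22 and 0.19 (adjusted p = 0.707 and 0.75) per the authors' deposited table. A link between this layout and the fold change was not tested.

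The other 15 genes of this role group did not pass at either stage under CDK9, and 0 of them had an unadjusted p under 0.05. They include both copies of the tight junction scaffold ZO-1, tjp1a at -0.29 and tjp1b at 0.23 at the 256-cell stage (adjusted p = 0.615 and 0.689), per the authors' deposited table. The adherens junction gene ctnna1, with a mean of 131.7, lay at 0.03 (SE 0.26, adjusted p = 0.956) at the 256-cell stage and 0.09 (SE 0.23, adjusted p = 0.851) at the 1024-cell stage per the authors' deposited table. No member had a smaller SE at the 256-cell stage, but the SEs are shrunken, so a closer bound on its change is not shown. The polarity genes scrib, dlg1, dlg3, patj and pard3ba lay between -0.11 and 0.55 at the 256-cell stage per the authors' deposited table. The neural cadherin gene cdh2 had the lowest value of the group at that stage, -0.38 (SE 0.50, adjusted p = 0.502), per the authors' deposited table.

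Proteases held the other gene that passed at both stages. ece2a (ENSDARG00000068021, chromosome 2, 44781185 to 44926290, plus strand), named after endothelin-converting enzyme, rose by 2.09 (SE 1.70, DESeq2 adjusted p = 0.0286) at the 256-cell stage per the authors' deposited table. It rose again at the 1024-cell stage, by 3.31 or 9.91-fold (SE 1.22, adjusted p = 0.00717), per the authors' deposited table. The first of these SEs is nearly as large as its estimate. The gene has only 4 exon blocks, and the last of them, 141.2 kb from the 5′ end, holds 82.2% of its exon bases. A clone-named gene on the same strand, BX649599.1, shares 675 of the 4735 exon bases of ece2a, so reads there may not all have been counted for ece2a. The identifier of ece2a is also paired with the symbol EEF1AKMT4 in the reference name table, so its place among the proteases is not settled. The 4 other proteases, furina, bmp1a, sppl3 and pepd, did not pass at either stage, with pepd at 0.75 and an unadjusted p of 0.0169 at the 256-cell stage per the authors' deposited table.

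**Figure D2:**
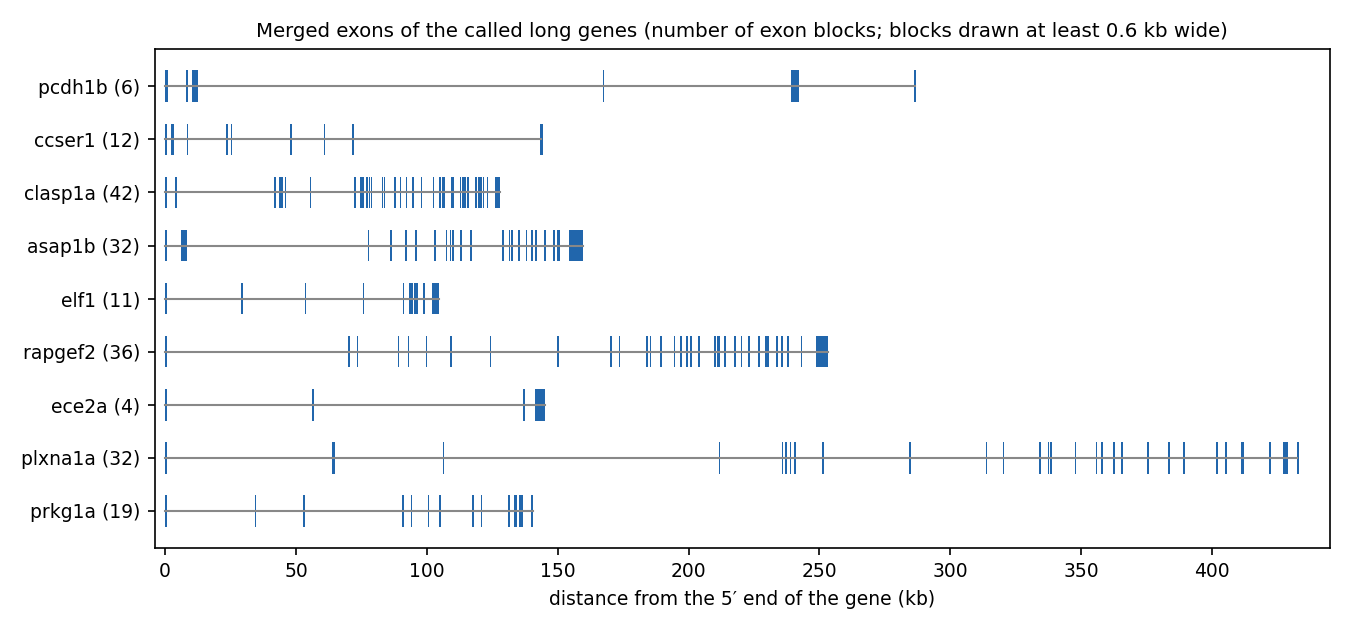
Layout of the 9 long genes that passed in at least 1 comparison, with distance from the 5′ end in kb on the horizontal axis and merged exons as blocks (drawn at least 0.6 kb wide). In pcdh1b 53.0% of exon bases lie in the first 20 kb, and its longest block lies 239.2 kb from the 5′ end. Most exon bases of ece2a lie in its last block, and clasp1a has 42 blocks.

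Regulators of small GTPases, the switches that control vesicle traffic, actin and adhesion, formed a group of 26 genes. Under CDK9 at the 256-cell stage 2 of them rose and 24 did not pass, where 5.04% of all tested genes rose. rapgef2 (ENSDARG00000005482, chromosome 14, 47779846 to 48033073, minus strand), an exchange factor for Rap, rose by 1.32 (SE 0.73, DESeq2 adjusted p = 0.0227) per the authors' deposited table. asap1b (ENSDARG00000039729, chromosome 24, 10897768 to 11057305, minus strand), a GTPase-activating protein for Arf, rose by 1.25 (SE 0.60, adjusted p = 0.0197) per the authors' deposited table. The median log2 fold change of the group was 0.47, against 0.16 in all 167 members, per the authors' deposited table. Values lay above 0 in 21 of the 26 genes, against 69.5% of all 167 members. In the group 10 genes had an unadjusted p under 0.05, all of them higher, against 34 of 167 members higher and a background of 7.98%. The groups were drawn up with these values known, so the difference from other members carries no test.

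Others of this group did not pass at the 256-cell stage, and rasal2, iqsec1b and gbf1 came nearest to the threshold. rasal2, a GTPase-activating protein for Ras, reached 0.93 on the log2 scale (SE 0.57, DESeq2 adjusted p = 0.0818) per the authors' deposited table. The Arf exchange factor genes iqsec1b and gbf1 had 0.96 and 0.85 (adjusted p = 0.0841 each) per the authors' deposited table. The exchange factor genes arhgef11, trioa and kalrna had 0.60, 0.65 and 0.61 at adjusted p of 0.229, 0.236 and 0.269 per the authors' deposited table. The 2 most abundant members of the group, akap13 and ralgapa2, had 0.17 (adjusted p = 0.753) and 0.57 (adjusted p = 0.287) per the authors' deposited table. The neurofibromin genes nf1a and nf1b, which restrain Ras, had 0.14 and -0.18 (adjusted p = 0.827 and 0.753) per the authors' deposited table. In 1024-cell embryos the group had 0 calls (DESeq2), a median of -0.01 and 1 gene at an unadjusted p under 0.05, ralgapa1 at 1.17 (adjusted p = 0.166), per the authors' deposited table. Over all genes 9.83% were higher at that stage under the unadjusted rule. There asap1b had -0.04 (SE 0.30, adjusted p = 0.954) and rapgef2 0.21 (SE 0.42, adjusted p = 0.644) per the authors' deposited table.

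Receptor, guidance and kinase genes made up 28 members, with 1 risen at the 256-cell stage and 1 fallen at the 1024-cell stage. Over all tested genes 5.04% rose at the first of these stages and 0.461% fell at the second. plxna1a (ENSDARG00000105452, chromosome 23, 34321237 to 34753811, plus strand) encodes a plexin, the receptor for semaphorin guidance cues, and rose by 1.09 (SE 0.55, DESeq2 adjusted p = 0.0383) at the 256-cell stage per the authors' deposited table. In 1024-cell embryos plxna1a had 0.52 (SE 0.57, adjusted p = 0.26) per the authors' deposited table. prkg1a (ENSDARG00000020656, chromosome 13, 40815012 to 40955599, plus strand), a cyclic GMP-dependent kinase gene, fell by 2.00 (SE 0.74, adjusted p = 0.0125) at the 1024-cell stage per the authors' deposited table. Its value in 256-cell embryos was 0.35 (SE 0.45, adjusted p = 0.533), and under MiR430 at the 1024-cell stage 0.0001 (SE 0.14, adjusted p = 1), per the authors' deposited table. The most abundant genes of the group, the phosphatase gene ptpn13 and the kinase gene tnikb, had 0.47 and 0.09 at the 256-cell stage (adjusted p = 0.379 and 0.896) per the authors' deposited table. ptk2ab, the focal adhesion kinase gene, had 0.96 (SE 0.51, adjusted p = 0.0646) at that stage per the authors' deposited table. The insulin and IGF receptor genes insrb and igf1rb had 0.84 and 0.79 (adjusted p = 0.128 and 0.15), and the second IGF receptor copy igf1ra -0.21 (adjusted p = 0.717), per the authors' deposited table. The Wnt co-receptor gene lrp5 had -0.79 (SE 0.59, adjusted p = 0.0991) at the 1024-cell stage per the authors' deposited table.

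**Figure D3:**
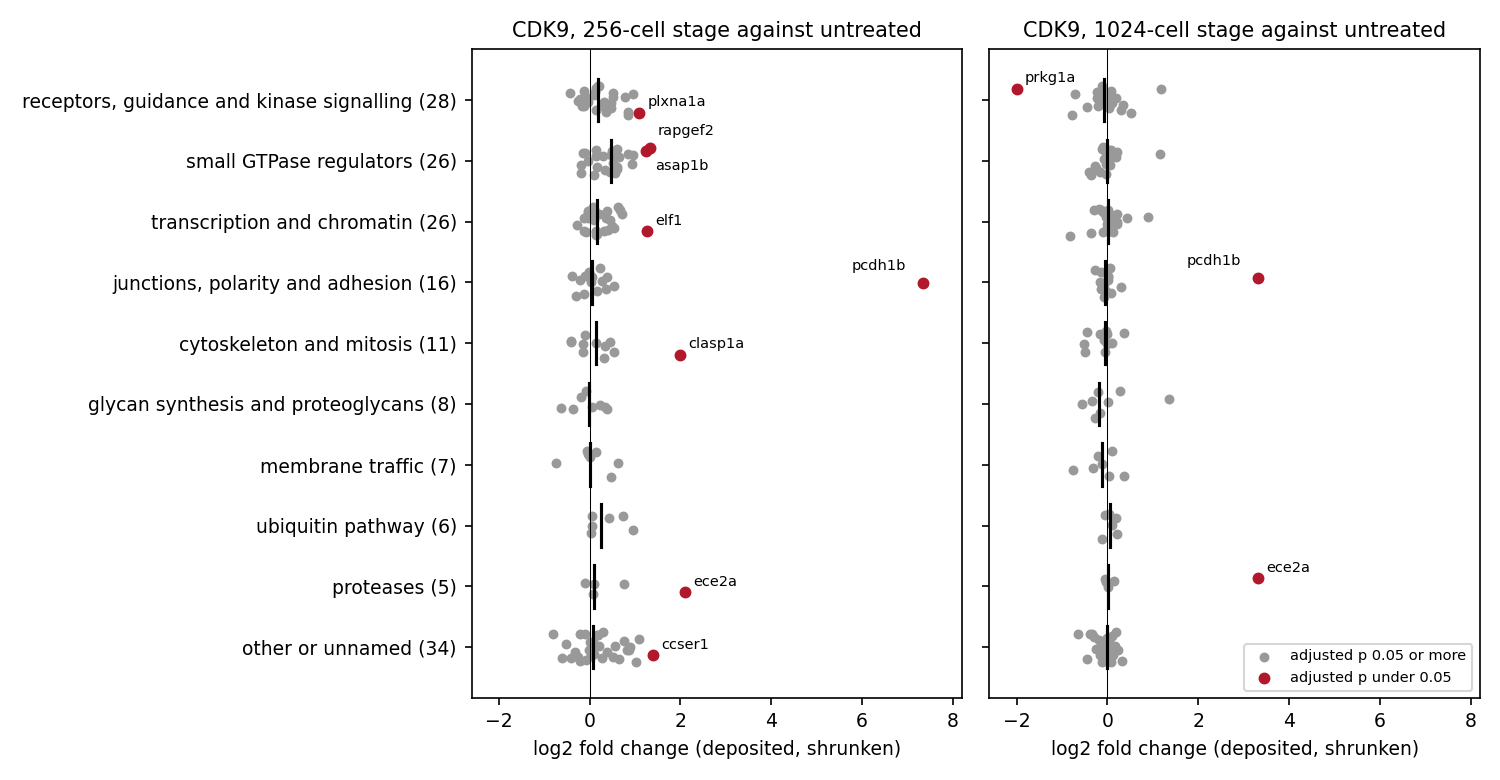
Log2 fold change under CDK9 against untreated embryos for the 167 genes by role, at the 256-cell stage (left) and the 1024-cell stage (right). Each point is a gene, black bars are group medians and red points passed an adjusted p of 0.05. Regulators of small GTPases have a median of 0.47 at the 256-cell stage and -0.01 at the 1024-cell stage.

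Transcription and chromatin genes had 26 members, of which 1 rose at the 256-cell stage and 0 at the 1024-cell stage (DESeq2). Over all tested genes 5.04% and 5.89% rose at these stages. At the 1024-cell stage 1 gene was higher and 1 lower at an unadjusted p under 0.05, against backgrounds of 9.83% and 2.75%. elf1 (ENSDARG00000020759, chromosome 14, 40745833 to 40850481, minus strand), an ETS factor gene, rose by 1.27 (SE 0.62, adjusted p = 0.0198) at the 256-cell stage per the authors' deposited table. In 1024-cell embryos elf1 had 0.21 (SE 0.39, adjusted p = 0.637) per the authors' deposited table. The zinc finger gene rreb1a and the co-repressor gene ncor1, the most abundant members of this group, had 0.42 and 0.14 at the 256-cell stage (adjusted p = 0.454 and 0.815) per the authors' deposited table. trrap, a scaffold of histone acetyltransferase complexes, had 0.72 (SE 0.40, adjusted p = 0.136) at the 256-cell stage per the authors' deposited table.

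Among 11 cytoskeletal and mitotic genes 1 rose at the 256-cell stage, where 5.04% of all tested genes rose. clasp1a (ENSDARG00000010280, chromosome 9, 38163876 to 38291809, plus strand), which encodes a protein of growing microtubule ends, rose by 1.99 (SE 1.00, DESeq2 adjusted p = 0.00539) per the authors' deposited table. Its paralogue clasp2, the most abundant gene of the group, had -0.15 (SE 0.35, adjusted p = 0.799), and cep192, a centrosome gene, 0.53 (SE 0.44, adjusted p = 0.316), per the authors' deposited table. Later, in 1024-cell embryos, clasp1a had 0.37 (SE 0.58, adjusted p = 0.457) per the authors' deposited table. There 9 of the 11 genes lay below 0, against 91 of all 167 members. Past the DESeq2 threshold were 0 of the 11, and 1, iqgap1, was lower at an unadjusted p under 0.05, per the authors' deposited table. The background under that rule was 2.75% lower.

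The glycan, ubiquitin and membrane traffic groups had 0 calls at both stages in DESeq2's adjusted p. Glycan genes numbered 8, with ext1b, a heparan sulfate polymerase gene, at 0.33 (adjusted p = 0.553) and man1a1, a mannosidase gene, at -0.20 (adjusted p = 0.737) at the 256-cell stage per the authors' deposited table. At an unadjusted p under 0.05, hs2st1b was lower at the 256-cell stage and gmds higher at the 1024-cell stage, with 1.35 (SE 0.93, adjusted p = 0.0802), per the authors' deposited table. Ubiquitin pathway genes numbered 6 and lay above 0 in 6 of 6 cases at the 256-cell stage, with the inhibitor of apoptosis gene birc6 at 0.73 (SE 0.49, adjusted p = 0.167) per the authors' deposited table. At an unadjusted p under 0.05, 2 of the 6 were higher there, against 34 of all 167 members, of which 69.5% lay above 0. Membrane traffic genes numbered 7, with dym at -0.06 (adjusted p = 0.936) and exoc6b at -0.75 (SE 0.62, adjusted p = 0.177) at the 256-cell stage per the authors' deposited table. There nbas was higher and exoc6b lower at an unadjusted p under 0.05, and lrba was lower at the 1024-cell stage. Under that rule 7.98% of all genes were higher and 2.04% lower at the 256-cell stage. At the 1024-cell stage these shares were 9.83% and 2.75%.

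Over all tested genes 5.04% rose at the 256-cell stage. The remaining 34 members, of other roles or without a settled name, had 1 rise there, ccser1 (ENSDARG00000075919, chromosome 8, 28724692 to 28868452, plus strand). It rose by 1.39 (SE 0.51, DESeq2 adjusted p = 0.0041) per the authors' deposited table, the second smallest adjusted p of the set. There was no such call in 1024-cell embryos, where ccser1 had -0.02 (SE 0.27, adjusted p = 0.973) per the authors' deposited table. Of its 2493 exon bases 62.1% lay in the first 20 kb. The most abundant of these 34 genes, ccdc88c, which encodes a regulator of Wnt signalling, had 0.30 (SE 0.39, adjusted p = 0.583) at the 256-cell stage per the authors' deposited table. si:ch211-233a24.2, paired with the symbol BLTP1 in the reference name table, had 0.51 (SE 0.43, adjusted p = 0.328) there per the authors' deposited table. wwc3 and abca3b just missed the threshold with adjusted p of 0.0525 and 0.0574 per the authors' deposited table.

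The 8 genes that rose at the 256-cell stage shared no common layout. Their spans ran from 104649 bases (elf1) to 432575 bases (plxna1a) and their exon blocks from 4 to 42. A gap of more than 50% of the span was present in 3 of the 8, against 35 of all 167 members. The share of exon bases in the first 20 kb ran from 0.645% in rapgef2 to 62.1% in ccser1. Chromosome 14 carried pcdh1b, elf1 and rapgef2, 3 of its 7 members, a feature named after it was seen.

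**Figure D4:**
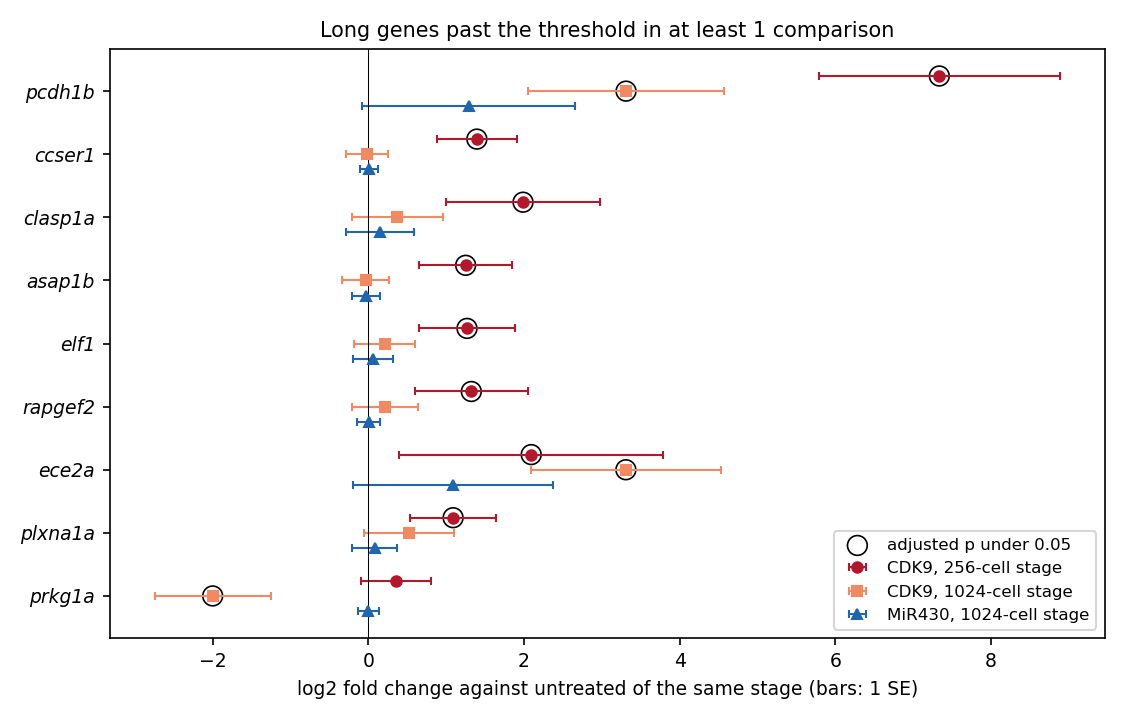
Log2 fold change against untreated embryos of the same stage, with 1 SE, for the 9 long genes that passed in at least 1 comparison. Circled points have an adjusted p under 0.05. MiR430 at the 256-cell stage is left out because its estimates are shrunken to almost 0. Shrinkage also differs between the comparisons shown, so sizes under MiR430 and CDK9 are not on 1 scale. pcdh1b and ece2a are circled at both stages under CDK9, and prkg1a is the single gene circled below 0.

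The CDK9 comparisons of both stages share no sample, so their values can be set against each other. Of the 8 genes that rose at the 256-cell stage 2 also rose at the 1024-cell stage (25%), which are both genes that rose there (100%). Among all genes, members or not, 207 rose at both stages, 45% of those that rose at the 256-cell stage and 30% of those at the 1024-cell stage, and with 8 and 2 genes the members' shares are no result. The log2 fold change was above 0 at both stages in 61 genes and at the 256-cell stage alone in 55. It was above 0 at the 1024-cell stage alone in 15 and below 0 at both in 36. At the 256-cell stage 69.5% of members lay above 0, against 58.4% of all tested genes. At the 1024-cell stage these shares were 45.5% and 55.9%. Equally selected genes of 20 to 50 kb had 66.9% and 45.3% at the 2 stages, and those of 50 to 100 kb 65.9% and 44.8%. Across the 167 genes the signed z statistics of the stages had a Spearman correlation of 0.37, a description across genes. The difference between stages was tested as the 1024-cell minus the 256-cell log2 fold change over its combined SE, with Benjamini-Hochberg adjustment over 9124 genes. No member passed (0 of 167), against a background of 0.197%, and 3 had an unadjusted p under 0.05, where the background was 3.51%. They were prkg1a with a difference of -2.35 (SE 0.87, adjusted p = 0.547), ccser1 with -1.42 (SE 0.58, adjusted p = 0.826) and pcdh1b with -4.03 (SE 1.99, adjusted p = 1), computed from the authors' deposited tables across all genes with DESeq2 estimates. asap1b and ptk2ab followed with differences of -1.29 and -1.08. A response at a single stage is therefore not shown for any of these genes.

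**Figure D5:**
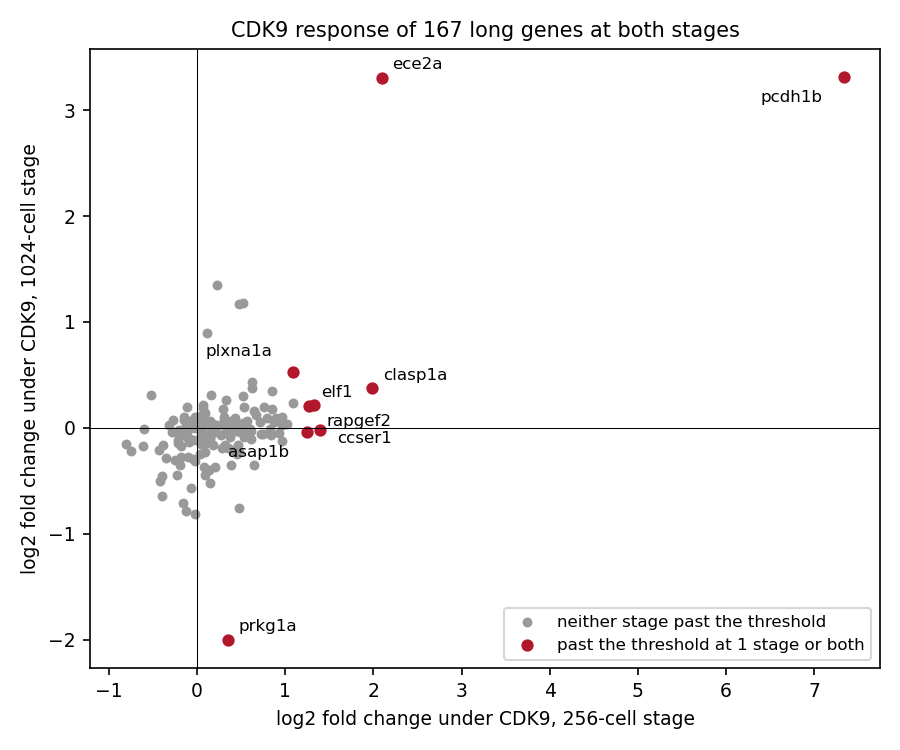
Log2 fold change of the 167 genes under CDK9 at the 256-cell stage (horizontal) and the 1024-cell stage (vertical), each against untreated embryos of its stage. Red points passed the threshold at 1 stage or both. pcdh1b and ece2a are high at both stages, and most genes lie near 0 on the vertical axis.

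MiR430 comparisons use the same untreated libraries as the CDK9 comparisons of their stage, so their values are given side by side and not as separate support. At the 256-cell stage 0 of 167 genes passed per the authors' deposited table (DESeq2), with 4 higher and 1 lower at an unadjusted p under 0.05. The background there was 0.0323% higher and 0.0242% lower at the adjusted threshold, and 1.46% and 1.43% at the unadjusted one. The higher ones included pcdh1b, asap2a and rapgef2, and the lower one was man1a1. Estimates of this comparison are shrunken to almost 0 (0.003 for pcdh1b at an unadjusted p of 0.0307) per the authors' deposited table and give no size.

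At the 1024-cell stage MiR430 gave 0 calls among the 167 genes as well (DESeq2), with 3 higher and 1 lower at an unadjusted p under 0.05, per the authors' deposited table. The background was 1.01% higher and 0.0558% lower at the adjusted threshold, and 6.01% and 1.65% at the unadjusted one. pcdh1b had 1.29 (SE 1.37, adjusted p = 0.134) and ece2a 1.08 (SE 1.28, adjusted p = 0.167) under MiR430, against 3.31 for each under CDK9, per the authors' deposited table. gmds had 0.30 (SE 0.63, adjusted p = 0.449) under MiR430 and 1.35 under CDK9 per the authors' deposited table. Shrinkage by the authors differed between comparisons, so sizes under MiR430 and under CDK9 are not on 1 scale. The LIM protein gene lpp, which acts at focal adhesions, had the lowest value, -0.95 (SE 0.80, adjusted p = 0.133), per the authors' deposited table. For 156 of 167 genes the interval of 1.96 SE lay within 1 of 0, but shrinkage narrows these intervals. The median SE of members was 0.18 here, against 0.36 under CDK9 at the same stage. MiR430 and CDK9 were not tested against each other.

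Other lists, mostly of shorter genes, are set beside the members. They were chosen with earlier results of these data known, so their counts are descriptions. Of 36 listed genes of the elongation machinery 33 were measured, and 2 of them exceeded 100 kb. Under CDK9, 2 of 32 tested genes rose and 0 fell at the 256-cell stage, per the authors' deposited table (DESeq2). At the 1024-cell stage 4 of 33 rose and 0 fell per the authors' deposited table. Over all tested genes 5.04% and 5.89% rose, and 0.373% and 0.461% fell, at these stages. cdk9 itself, whose mRNA was injected, rose by 6.79 and 5.88 at the 256-cell and 1024-cell stages per the authors' deposited table. Both counts of the list include it, and its rise is not read as a response of the list. brd2a rose at both stages, by 6.46 and 3.43, and polr2a, the largest subunit of RNA polymerase II, and brd3a rose at the 1024-cell stage by 1.87 and 1.43, per the authors' deposited table. Of 10 zygotic marker genes, with spans of 1046 to 11833 bases, 9 rose at the 256-cell stage and 6 at the 1024-cell stage under CDK9 per the authors' deposited table. Under MiR430 0 of them passed (DESeq2), with 7 and 9 higher at an unadjusted p under 0.05 at the 256-cell and 1024-cell stages. The background under that rule was 1.46% and 6.01% higher. Of 8 maternal markers 0 passed in any comparison (DESeq2). At an unadjusted p under 0.05, 1 and 2 were lower under CDK9 at the 256-cell and 1024-cell stages, against backgrounds of 2.04% and 2.75%. Under MiR430 0 and 1 were lower at these stages, against 1.43% and 1.65%. Their median log2 fold changes under CDK9 were -0.09 and -0.13 per the authors' deposited table. The part that maternal RNA carried into the captured fraction plays in the level of the long genes was not tested.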

How the data were processed

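Whole zebrafish embryos in 6 groups of 3 were assayed by enriched SLAM-seq. Trimming (Trimmomatic), alignment (HISAT) to GRCz11, SAMtools, Picard, featureCounts and DESeq2 are named by the submitters' processing notes, without versions. The authors' deposited mean normalized count, a signal, averages all libraries and was identical in the 4 deposited tables. The deposited log2 fold changes and their standard errors had been shrunken by the authors, as values near 0 with small p-values show. Each comparison's p-value and adjusted p-value were deposited by the authors, while those of the stage difference and of alternative adjustments were computed here.

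The 18 count columns match no sample label, so the planned count models, a leave-one-out check and depth per library were not run. From that deposited table came symbols, exon coordinates, strand and exon length.

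Span was the highest exon end minus the lowest start plus 1, and overlapping exons were merged into blocks. A gene was called at a deposited adjusted p under 0.05, with the direction of its log2 fold change. A signed z statistic came from each p-value. For the stage difference an approximate normal test was used. It was run on simulated data drawn from the deposited SEs without shrinkage. That check cannot show how the test behaves on the shrunken estimates used here. No source used here says whether counted reads needed converted bases. P-values measure the spread between biological replicates as the authors modelled it.

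Members, role groups and lists were chosen with earlier results of these data known. Named genes were all called members, the 2 most abundant of each role group, the 3 longest, those nearest each limit and the 5 with the smallest p for the stage difference. Some of these are not reported here. Other genes named in the text were chosen after their values were seen. Promoter motifs and sequences were not analysed here. Computations ran in pandas 2.3.3, numpy 2.4.6, matplotlib 3.10.9, scipy 1.17.1 and, for adjustment, statsmodels 0.14.6 (Python 3.11.15).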

Additional observations from a re-analysis of the deposited data

How the results depend on the processing

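The alternatives for single genes change the adjustment or the threshold and leave the fold change as deposited. The 11 calls of single genes kept their side of the threshold in 11 cases with adjustment over genes with a mean of at least 50, in 9 with adjustment over every gene with a p, in 6 with z statistics recentred on their median and in 5 at an adjusted p under 0.01 (DESeq2 p-values). With recentred statistics asap1b, elf1, rapgef2, ece2a and plxna1a at the 256-cell stage did not pass (adjusted p = 0.0522, 0.0524, 0.0597, 0.0719 and 0.0909). Adjusted over every gene, ece2a and plxna1a did not (0.0532 and 0.0712). The count of 8 long genes higher under CDK9 at the 256-cell stage became 16 with adjustment over genes with a mean of at least 50, with wwc3, abca3b, ptk2ab, tnksa, rasal2, gbf1 and iqsec1b among those added. It was 3 with recentred statistics, 3 at an adjusted p under 0.01, 4 of 87 genes above 150 kb and 2 of 48 genes with a mean of at least 100. Leaving out genes whose span without the longest gap is 100 kb or less, a choice made after seeing the data, left 3 of 81. The count of 2 higher at the 1024-cell stage became 4 with adjustment over genes with a mean of at least 50 (adding gmds and mapk6). It was 1 above 150 kb, 4 of 288 genes above 75 kb, 1 with a mean of at least 100 and 1 without genes held long by their longest gap. The single fall at the 1024-cell stage became 0 at an adjusted p under 0.01, above 150 kb and with a mean of at least 100. There were 3 above 75 kb and 2 of 338 with a mean of at least 25. Fewer or more genes enter under other limits, which by itself moves these counts. No share over all genes under the same rule stands beside these alternative counts, so they describe the members only. The median log2 fold change of 0.16 under CDK9 at the 256-cell stage became 0.15 above 150 kb and 0.33 with a mean of at least 100, a limit on a mean that includes the CDK9 libraries. The stage difference gave 0 calls in each alternative, and the smallest adjusted p with z statistics was 0.11 for prkg1a. No paired analysis was possible because the count columns carry no names that match the samples, so the replicate block, leaving out replicates, and DESeq2 against edgeR were not run.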

Other observations

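Long genes below the abundance limit also held calls. Of 1295 nuclear genes over 100 kb off chromosome 4, 171 had a mean of 25 to 50 and 260 a mean of 10 to 25, and 697 were lower still. Under CDK9 at the 256-cell stage 4 of the 171 and 5 of the 260 rose, and 0 of the 62 tested genes below a mean of 10 passed, per the authors' deposited table (DESeq2, adjusted p under 0.05). Over all tested genes 5.04% rose. At an unadjusted p under 0.05, 16 of the 171 were higher and 4 lower, 24 of the 260 were higher and 6 lower, and 8 of the 697 were higher and 14 lower. The background under that rule was 7.98% higher and 2.04% lower. The neurobeachin gene nbeaa, which spans 308740 bases, rose by 3.95 (SE 1.46, adjusted p = 0.00174) and the calcineurin-binding gene cabin1 by 1.55 (SE 0.96, adjusted p = 0.0202) per the authors' deposited table. A gene without a symbol in the count table (ENSDARG00000114823), paired with PLXNA1 in the reference name table, rose by 2.89 (SE 1.17, adjusted p = 0.00155), so that a second plexin gene of over 100 kb joined plxna1a, per the authors' deposited table. Another one, paired with RAPH1, rose by 1.98 (SE 0.76, adjusted p = 0.00106) per the authors' deposited table. Among the less abundant ones dock6, gli2a, mical3a, sfswap and nfasca rose, with log2 fold changes of 1.60 to 4.24 and SEs of 1.04 to 2.77 per the authors' deposited table. The SE of gli2a (2.77) exceeds its estimate of 2.56.

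In CDK9-injected 1024-cell embryos 3 of 258 tested long genes with a mean of 10 to 25 rose, chmp6b, si:dkey-77f5.8 and pcdh17. Of 171 with a mean of 25 to 50, 0 rose and 1 fell, the histone deacetylase gene hdac4 of 392596 bases. It fell by 2.09 (SE 1.11, adjusted p = 0.0368) per the authors' deposited table (DESeq2). Over all tested genes 5.89% rose and 0.461% fell. The protocadherin gene pcdh17 had 2.42 (SE 2.06, adjusted p = 0.0359) per the authors' deposited table. Its value at the 256-cell stage was 0.29 (SE 0.82, adjusted p = 0.533) per the authors' deposited table. Other long protocadherin and plexin genes were not counted, so no response of either family is shown. si:dkey-77f5.8 rose by 3.23 (SE 1.03, adjusted p = 0.00413), and under MiR430 at the same stage it had 2.25 (SE 1.23, adjusted p = 0.05), per the authors' deposited table. Exons of 13 of the 167 abundant long genes overlap those of another annotated gene on the same strand, and in 15 they overlap one on the opposite strand.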
